A study of Mus musculus with 38 samples.

Results

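p300 (encoded by Ep300, also called KAT3B) is an acetyltransferase that is brought to enhancers and promoters by DNA-binding factors. There it acetylates histones and other proteins and links the factors to the transcription machinery. Because it carries no sequence preference of its own, a p300 ChIP-seq peak is commonly read as a mark of a regulatory element that is in use, and in lymphoid progenitors such elements include enhancers of the genes that open the T cell program.

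The p300 peaks of Cas9-LP cells before and early after Notch stimulation were compared here. The LP list held 36182 p300 peaks and the Phase 1 list 49116, so that 85298 of the 359759 peaks in the 17 lists of the series were described. A peak was called stage-specific when no p300 peak of the other stage overlapped it by 1 bp, and shared otherwise. Cas9-LP cells are a lymphoid progenitor line grown from fetal liver of mice that lack Ebf1, the factor that starts the B cell program, and that carry Cas9 knocked in at Rosa26. Both groups had this genotype. LP cells were kept on OP9 stromal cells without a Notch ligand, with SCF, Flt3L and IL-7. Phase 1 cells had been placed for 2 days on OP9-DLL4 cells, which display the Notch ligand DLL4, and the stromal cells of the cultures had been treated with mitomycin C. The line stands for progenitors that cannot proceed to the B lineage, and whether stromal cells were removed before chromatin was fixed for ChIP was not given in the sources used here. Each list combined 2 replicates, so no spread between cultures could be estimated and no p-value is given. The 95% intervals on shares of peaks cover counting error only.

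Of the LP p300 peaks, 7491 (20.7%, interval 20.3 to 21.1%) were LP-specific, and of the Phase 1 p300 peaks 20425 (41.6%, 41.2 to 42.0%) were Phase 1-specific. The 28691 shared sites lay almost on top of each other, with a median of 20 bp between the centres of a pair. The difference between the stages in the share of stage-specific peaks was 20.9 percentage points (20.3 to 21.5). It was also present for Med12, a subunit of Mediator, with 19.5% of LP peaks and 38.2% of Phase 1 peaks stage-specific, and for RUNX1, the DNA-binding factor at the center of the study, with 16.8% and 30.7%. For CTCF, which binds insulators and loop anchors, the order was the other way, with 9.55% in LP and 8.35% in Phase 1. For each factor the number of shared peaks was the same in both lists. The longer list therefore had the larger stage-specific share by construction, and the order of the stages shows list length only. The Phase 1 list was longer for Med12 (39132 peaks against 30020) and for RUNX1 (38399 against 31995). For CTCF the LP list was longer (45388 against 44793). The Phase 1 p300 list was also the longer one. When it was shortened to the length of the LP list the p300 difference became 0 by construction. A shorter list can come from lower depth as well as from fewer occupied sites, and depth was not used here. In a bulk ChIP, more cells with a site in use and more occupancy per cell cannot be told apart.

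Sites from each class are printed as examples of the DNA at which these peaks lay. They are the 200 bp at the centre of the highest-ranked LP-specific peak outside promoters (Cradd), of the highest-ranked shared peak (Dad1), and of the highest-ranked Phase 1-specific peaks assigned to a T lineage gene (Il2ra), a Notch signaling gene (Nrarp), a stem and progenitor gene (Runx1) and a B lineage gene (Tcf3). Genes are those whose start was nearest to the peak. Capitals mark a match to 1 of the 12 short strings that were searched on both strands, which are described together with their counts. The sequences are the plus strand of mm10, at chr10:95314080-95314279 (Cradd), chr14:54227459-54227658 (Dad1), chr2:11623238-11623437 (Il2ra), chr2:25172739-25172938 (Nrarp), chr16:92822083-92822282 (Runx1) and chr10:80435845-80436044 (Tcf3).
Cradd: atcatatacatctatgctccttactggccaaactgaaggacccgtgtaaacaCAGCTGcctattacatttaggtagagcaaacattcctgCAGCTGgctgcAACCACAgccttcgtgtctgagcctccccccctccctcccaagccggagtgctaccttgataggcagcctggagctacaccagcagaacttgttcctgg
Dad1: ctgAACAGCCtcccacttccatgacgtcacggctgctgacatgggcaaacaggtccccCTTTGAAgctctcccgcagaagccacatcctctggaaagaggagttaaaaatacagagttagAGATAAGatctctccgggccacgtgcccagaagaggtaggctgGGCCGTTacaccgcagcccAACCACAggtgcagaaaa
Il2ra: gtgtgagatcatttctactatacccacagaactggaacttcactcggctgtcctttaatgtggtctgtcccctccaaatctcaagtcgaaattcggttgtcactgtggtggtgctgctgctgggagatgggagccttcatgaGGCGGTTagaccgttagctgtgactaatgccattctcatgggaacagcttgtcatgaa
Nrarp: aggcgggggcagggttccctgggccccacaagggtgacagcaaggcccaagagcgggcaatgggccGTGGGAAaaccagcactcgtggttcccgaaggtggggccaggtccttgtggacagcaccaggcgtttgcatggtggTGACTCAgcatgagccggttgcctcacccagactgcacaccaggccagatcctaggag
Runx1: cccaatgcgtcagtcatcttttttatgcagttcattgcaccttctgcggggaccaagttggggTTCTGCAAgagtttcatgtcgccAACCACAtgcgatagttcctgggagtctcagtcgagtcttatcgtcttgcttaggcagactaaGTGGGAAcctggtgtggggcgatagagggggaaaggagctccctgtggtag
Tcf3: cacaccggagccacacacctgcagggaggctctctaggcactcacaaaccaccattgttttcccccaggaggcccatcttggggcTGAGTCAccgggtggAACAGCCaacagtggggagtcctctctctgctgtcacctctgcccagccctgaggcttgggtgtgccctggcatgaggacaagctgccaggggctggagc
The Cradd site held the E-box string 2 times and the RUNX string once. The Nrarp site held an AP-1 string and the string of RBPJ, through which Notch1-IC reaches DNA. The Runx1 site held a C/EBP, a RUNX and an RBPJ string. The Tcf3 site held an AP-1 and a MYB string, and the Il2ra site a MYB string alone. A match is a match of letters, not a binding site. The highest-ranked Phase 1-specific peak outside promoters, upstream of Armc12, is not printed, and its central 200 bp held none of the 12 strings. None of them was found in 25.6% of Phase 1-specific, 35.2% of LP-specific and 35.95% of shared windows.

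Stage-specific p300 peaks were mostly weak within their own list. Percentiles here rank the peak score inside 1 list, because what the authors' normalized score was scaled to was not stated, and scores were not compared between lists. The median LP-specific peak stood at percentile 20.7 of the LP list, the median Phase 1-specific peak at percentile 29.7 of the Phase 1 list, and shared peaks at 58.4 and 66.0. When each list was cut into 5 equal classes of score, the LP-specific share went from 50.5% in the lowest class through 29.2%, 14.8% and 6.40% to 2.64% in the highest. The Phase 1-specific share went from 73.8% through 58.4%, 42.3% and 24.9% to 8.54%. Among the 1000 highest peaks, 11 were LP-specific and 13 Phase 1-specific, and none of the 100 highest peaks of either list was stage-specific, which allows a share of up to 3.70%. In each of the 5 classes the Phase 1 share exceeded the LP share. The Phase 1 list was the longer list here too, and the classes were not compared at equal list length.

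**Figure D1:**
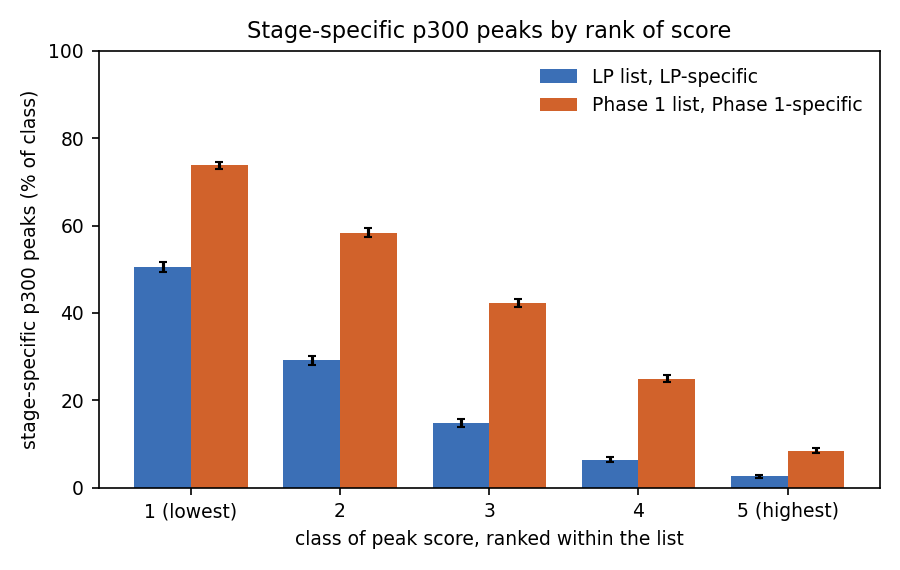
Share of p300 peaks that were stage-specific (y axis, % of the class) in 5 equal classes of peak score, ranked within each list (x axis, from lowest to highest). Bars are shares of peaks and error bars 95% Wilson intervals; the share fell from 50.5% to 2.64% in the LP list and from 73.8% to 8.54% in the Phase 1 list.

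The strongest stage-specific peaks included sites close to p300 peaks of the other stage. The highest-ranked LP-specific peak lay in intron 2 of Cradd, a death-domain adaptor (chr10:95314016-95314344, score 531.1, rank 321), with LP Med12 and no LP RUNX1 peak, and the nearest Phase 1 p300 peak was 0.501 kb away. Next came a peak at the promoter of the casein kinase gene Csnk1g2 (chr10:80622348-80622676, rank 446). The Phase 1 list held its own peak at the same promoter (chr10:80621969-80622307, rank 247), 0.374 kb away. Upstream of Armc12, the LP-specific peak of rank 509 and the Phase 1-specific peak of rank 244 were 0.364 kb apart. These are neighbouring summits within a region occupied at both stages. Over the whole class, 12.4% of LP-specific peaks lay within 1 kb of a Phase 1 p300 peak and 4.64% of Phase 1-specific peaks within 1 kb of an LP p300 peak.

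Other strong Phase 1-specific peaks stood farther from LP p300. The peak 19.5 kb upstream of Il2ra, the gene of the CD25 chain of the IL-2 receptor that marks the next stage of T cell development (chr2:11623169-11623507), had a score of 564.7 and rank 302 of the Phase 1 list, with Phase 1 RUNX1 and Med12 peaks. The nearest LP p300 peak was 12.96 kb away. The peak 31.4 kb upstream of Tcf7, which encodes TCF1 (chr11:52314265-52314603), had rank 479, was 3.40 kb from LP p300 and also carried CTCF at both stages. The peak assigned to Gm11837 (chr4:14967398-14967736) had rank 423, and LP p300 was 103.4 kb away. Peaks assigned to Slc16a7, Mir142, Gse1 and Zfp36 were also among the 10 highest-ranked Phase 1-specific peaks, and these 4 had Phase 1 RUNX1 and Med12.

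Among LP-specific peaks, the other 7 of the 10 highest were assigned to Ppcdc, Irf2, Pck1, Sipa1l1, Cuedc1, Mir1966 and 1700108F19Rik. The peak near Mir1966 carried CTCF at both stages and neither RUNX1 nor Med12. The Sipa1l1 peak (rank 667) carried none of the 3 factors and lay 4.32 kb from a shared p300 peak in the same intron that was the third of the LP list and the second of the Phase 1 list. The highest shared peak of the LP list was near Dad1, downstream of the T cell receptor alpha locus (chr14:54227395-54227723, score 2786). It was followed by the Pgls promoter, Sipa1l1, intron 9 of Flt3, a cytokine receptor of lymphoid progenitors, and the Maz promoter.

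Promoter p300 peaks were mostly shared. Of the shared peaks 29.8% were annotated as promoter, against 9.89% of LP-specific peaks (741 peaks) and 4.41% of Phase 1-specific peaks (901 peaks). Shared exceeded stage-specific peaks by 24.0 points (23.4 to 24.6), and LP-specific exceeded Phase 1-specific peaks by 5.48 points (4.76 to 6.23), or by 9.89 points among stage-specific peaks with a score of 30 or more. Introns held 46.8% of Phase 1-specific, 44.0% of LP-specific and 33.5% of shared peaks, and intergenic DNA 44.8%, 38.2% and 31.1%. Promoter peaks ranked high, and the gap was also present within the higher score classes. In the highest score class, 24.1% of LP-specific and 9.06% of Phase 1-specific peaks were at promoters, against 45.8% and 42.2% of the shared peaks of that class. In the lowest LP class the shares were 6.35% for LP-specific and 5.89% for shared peaks, with overlapping intervals.

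Phase 1-specific peaks were also the most distant. The median distance to the nearest transcription start was 24.0 kb for Phase 1-specific, 15.9 kb for LP-specific and 8.79 kb for shared peaks. With promoter peaks left out the medians were 25.9, 19.0 and 19.5 kb. Over 10 kb from a start lay 72.3% of Phase 1-specific and 61.8% of LP-specific peaks, a difference of 10.5 points (9.25 to 11.8). It was 5.77 points with the Phase 1 list shortened to the length of the LP list and 17.1 points among stage-specific peaks with a score of 30 or more. Over 100 kb lay 13.0% and 8.02%.

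**Figure D2:**
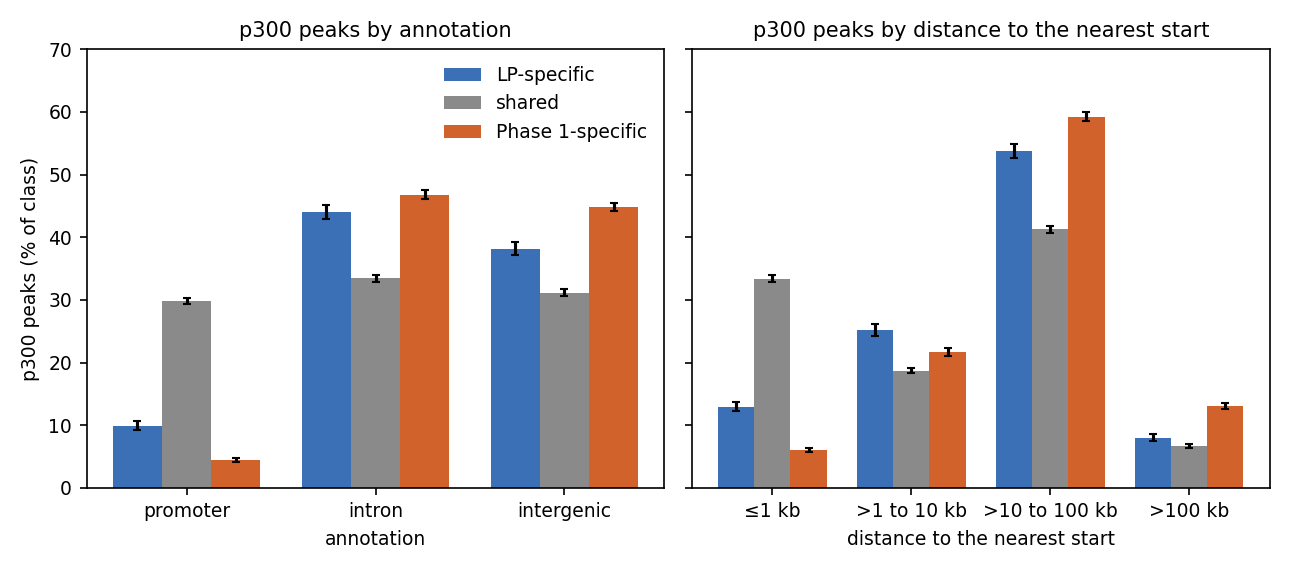
Share of p300 peaks (y axis, % of the class) by annotation (left) and by distance to the nearest transcription start in kb (right) for LP-specific, shared and Phase 1-specific peaks; error bars are 95% Wilson intervals. Shared peaks have the tallest promoter bar, 29.8%, and Phase 1-specific peaks the tallest bar over 100 kb, 13.0%.

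Stage-specific p300 differed in the factors that shared its sites. RUNX1 of the same stage overlapped 56.8% of LP-specific and 40.02% of Phase 1-specific p300 peaks, a difference of -16.7 points (-18.05 to -15.4) for Phase 1 minus LP. With the Phase 1 list shortened to the length of the LP list it was -7.02 points (-8.31 to -5.72). At shared sites the RUNX1 shares were 86.5% in LP and 89.0% in Phase 1. CTCF overlapped 27.0% of LP-specific but 6.89% of Phase 1-specific p300 peaks (difference -20.1 points, -21.1 to -19.0, and -12.9 with both lists at a score of 30 or more), with 22.2% and 21.6% at shared sites. At most LP-specific p300 sites with CTCF, CTCF was listed at both stages (24.5% of LP-specific peaks, against 2.48% with CTCF in LP alone). RUNX1 of Phase 1 was still found at 23.2% of LP-specific p300 sites, whereas LP RUNX1 was found at 4.88% of Phase 1-specific ones, a difference of -18.3 points (-19.3 to -17.3).

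Med12 marked both classes to a similar extent. It overlapped 54.5% of LP-specific and 51.9% of Phase 1-specific p300 peaks, a difference of -2.66 points (-3.98 to -1.34). With promoter peaks left out the difference was -1.12 points and its interval included 0 (-2.50 to 0.264), and with the Phase 1 list shortened to the length of the LP list it was 15.5 points, so its direction depended on the setting. RUNX1 and Med12 together were at 80.3% of the shared p300 peaks of the LP list, at 43.0% of LP-specific and at 34.5% of Phase 1-specific ones. None of the 3 factors was at 23.0% of LP-specific and 38.9% of Phase 1-specific p300 peaks.

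Score rank and co-occupancy went together. From the lowest to the highest score class, the share of Phase 1-specific p300 peaks with RUNX1 went from 22.6% to 86.7% and the share with Med12 from 23.0% to 90.2%. The corresponding LP-specific shares went from 40.4% to 79.6% for RUNX1 and from 37.2% to 75.4% for Med12. CTCF went the other way in LP, from 29.7% to 16.8%, and in Phase 1 was 7.98% in the lowest class and 8.34% in the highest.

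**Figure D3:**
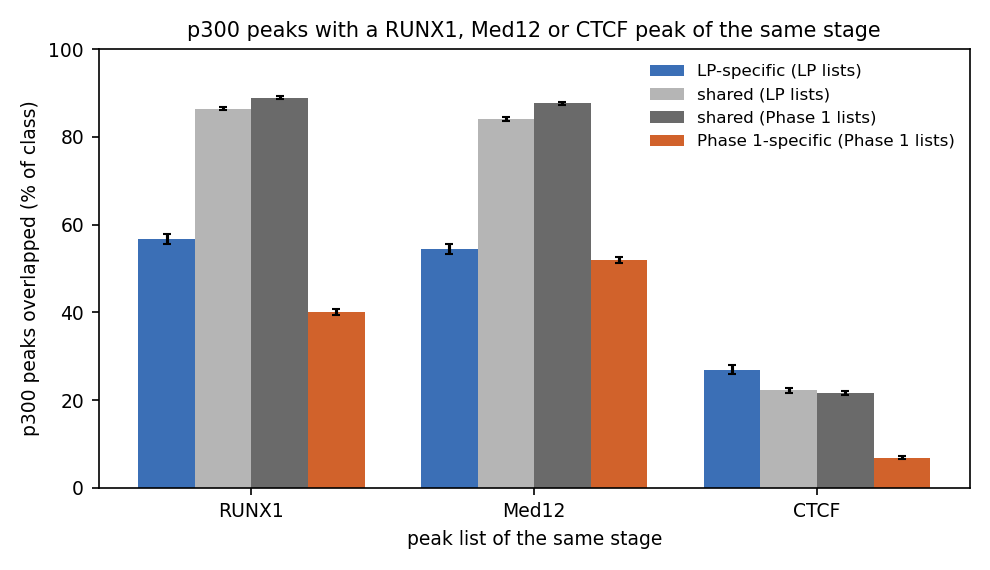
Share of p300 peaks (y axis, % of the class) that a RUNX1, Med12 or CTCF peak of the same stage overlapped by 1 bp (x axis, peak list), for LP-specific, shared and Phase 1-specific p300 peaks; error bars are 95% Wilson intervals. CTCF bars stand at 27.0% for LP-specific and 6.89% for Phase 1-specific peaks, while Med12 bars of these classes, 54.5% and 51.9%, are close.

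The DNA under the peaks differed most in the AP-1 string. The AP-1 string, read by dimers of Fos, Jun and Batf proteins, was TGACTCA or, with the other middle base, TGAGTCA. The RUNX string was TGCGGTT or, in its second form, TGTGGTT. The TCF1 and LEF1 string was CTTTGAA or, with the other last base, CTTTGAT. The factors that bind GATA sites were searched as AGATAAG, E proteins (E-box) by the letters CAGCTG, RBPJ by the letters GTGGGAA, and MYB by the letters AACNGCC. PU.1 was searched as GAGGAAGT, ETS factors of the ETS1 class as ACAGGAAGT, C/EBP as TTGCNNAA, and IRF factors and CTCF by longer strings. The PU.1 and ETS strings share their closing letters but cannot match at the same position. An AP-1 string was found in the central 200 bp of 24.8% of Phase 1-specific p300 peaks, against 6.75% of shared and 4.81% of LP-specific peaks. In equally long flanking windows, 2 kb off on each side, the shares were 3.74%, 3.53% and 3.76%, and of all RefSeq promoters (300 bp, GRCm38.p6) 3.66% held it. The difference between Phase 1-specific and LP-specific peaks was 20.0 points (19.2 to 20.8), and it was present in every score class, with Phase 1-specific shares from 22.0% in the lowest class to 29.8% in the fourth. The median distance from the string to the centre of a Phase 1-specific peak was 32.5 bp.

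AP-1 and RUNX strings were unequally spread over Phase 1-specific p300 peaks. The AP-1 string was at 17.8% of those with a Phase 1 RUNX1 peak (16.9 to 18.6%) and at 29.5% of those without (28.7 to 30.4%). With both stage-specific classes restricted to RUNX1-bound peaks, the AP-1 difference between them was 13.3 points. The RUNX string was at 30.4% of those with RUNX1 and 13.1% of those without. The classes as wholes had the RUNX string at 20.0% of Phase 1-specific, 20.4% of shared and 14.2% of LP-specific p300 peaks, with 5.38 to 5.81% in flanks and 4.48% of promoters. The RUNX difference between Phase 1-specific and LP-specific peaks was 5.80 points, 3.41 with the Phase 1 list shortened and 13.5 at RUNX1-bound peaks.

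The C/EBP string (13.9% of Phase 1-specific against 6.92% of LP-specific peaks), the GATA string (4.18% against 1.28%), the TCF1 string (7.61% against 4.90%), the RBPJ string (6.48% against 3.35%) and the IRF string (3.88% against 2.40%) were likewise more frequent in Phase 1-specific peaks, and each interval of the difference left out 0. With the Phase 1 list shortened to the length of the LP list, the IRF difference was 0.375 points and its interval included 0 (-0.088 to 0.839). GATA3 and TCF1 are early T cell factors. The TCF1 string was nevertheless at 7.83% of the flanks of Phase 1-specific peaks, and at 7.28% of the flanks of LP-specific peaks, so the Phase 1-specific share did not rise above its flanks while the LP-specific share lay under them. The GATA share of Phase 1-specific peaks was above its flanks (2.69%), and that of LP-specific peaks was under its own (2.56%).

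LP-specific p300 peaks were richer in the E-box string (26.2% against 15.8% of Phase 1-specific peaks, difference -10.4 points, -11.5 to -9.30), the PU.1 string (9.07% against 4.30%), the ETS string (3.83% against 1.92%) and the CTCF string (5.05% against 0.671%, a difference of -4.38 points, and of -2.11 with both lists at a score of 30 or more). Their PU.1 share was close to that of shared peaks, 8.84%, with 1.24% in flanks. E proteins and PU.1 act in lymphoid and myeloid progenitors. The MYB string did not separate the stages (10.6% and 11.0%, difference 0.403 points, -0.428 to 1.21). Mean GC content was 48.0% in Phase 1-specific, 52.5% in LP-specific and 55.3% in shared windows (SD 7.12, 8.85 and 10.2 over peaks), and its part in the string shares was not tested.

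**Figure D4:**
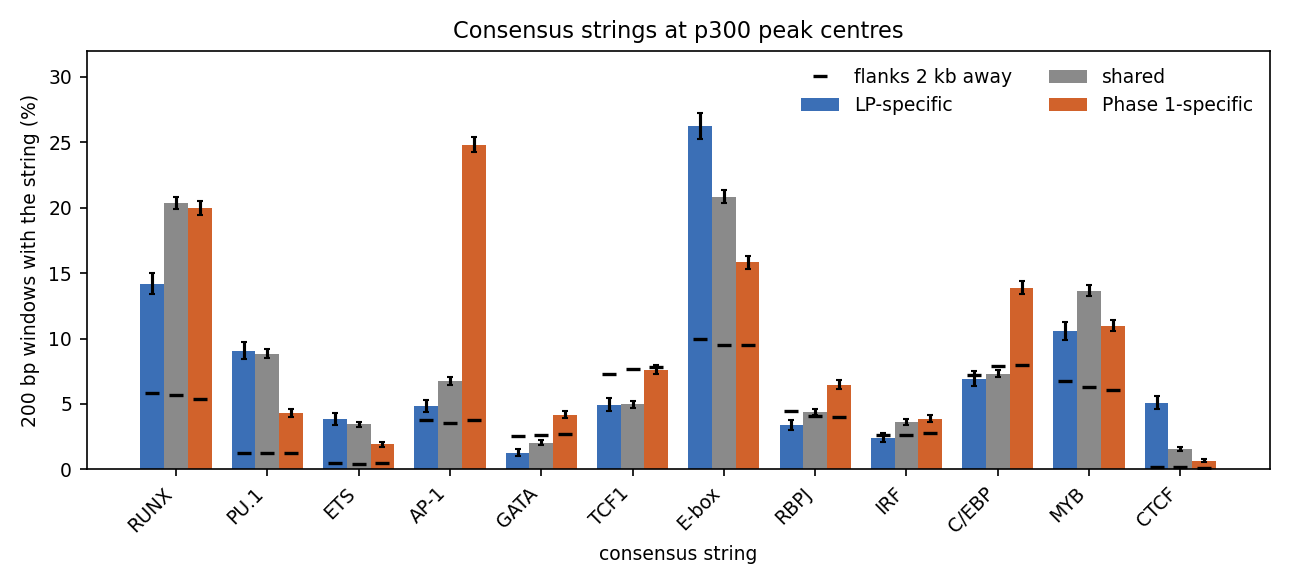
Share of 200 bp windows at p300 peak centres (y axis, %) that held each consensus string on either strand (x axis), for LP-specific, shared and Phase 1-specific peaks; error bars are 95% Wilson intervals and black dashes the share in flanks 2 kb away. The AP-1 bar of Phase 1-specific peaks, 24.8%, stands far above its flanks, 3.74%.

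Before the genes are described, the cells were checked against their markers. All 20 blood cell marker genes, among them Ptprc (CD45), Vav1 and Lcp2, had a p300 peak in each stage, with 91 peaks in LP and 94 in Phase 1 and 16 genes with a promoter peak in each. A list of 20 genes typical of OP9 stroma, fibroblast and adipocyte-like cells, moved with the stage. It had 10 p300 peaks in LP and 68 in Phase 1. None of its genes had a promoter p300 peak in LP and 6 had one in Phase 1, namely Col1a2 and Col5a1 (fibrillar collagens), Cxcl12 (a stromal chemokine), Thbs1, Loxl1 and Twist1. Med12 went from 7 to 42 and RUNX1 from 9 to 31 peaks over the same genes, and CTCF from 49 to 46. Pdgfra, Fn1, Lum and Dcn, which also define such cells, had no p300 peak at either stage. The part of stromal chromatin in the Phase 1-specific class was not tested. The 60 Phase 1-specific peaks of this list had a median percentile of 37.2 and reached 89.3. RUNX1 was at 18 of them (30%), Med12 at 32 (53.3%) and the AP-1 string at 11 (18.3%). Over all Phase 1-specific peaks these shares were 40.02%, 51.9% and 24.8%. In the T lineage list the AP-1 string was at 10 of 105 Phase 1-specific peaks (9.52%) and at 4 of 42 LP-specific ones (9.52%). The AP-1 difference between the stages was thus absent in that list. In each of the other gene lists the Phase 1-specific share was the higher one, on few LP-specific peaks in some lists. When the classes were restricted to p300 peaks with a RUNX1 peak of the same stage, a setting added after the data were seen, 4252 LP-specific and 8174 Phase 1-specific peaks were left.

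Stage-specific peaks were spread over many genes. Of 16669 genes with a p300 peak, 4957 had at least 1 LP-specific peak, 9085 at least 1 Phase 1-specific peak and 3107 both. Runx1 and Dad1 had the most LP-specific peaks, 13 each, and both had nearly as many Phase 1-specific ones (11 and 12) beside 23 and 16 shared ones. Others with many LP-specific peaks had few of the opposite class, such as Ajap1 (10 against 1, with 6 shared), Irf8, a myeloid and dendritic cell factor (8 against 2, with 19 shared), and Klhl25 (8 against 2, with 21 shared). The most Phase 1-specific peaks were near Angpt1 (23, with none LP-specific and 1 shared), which encodes a secreted ligand of the Tie2 receptor, and near Maf (21, none LP-specific, 10 shared), a transcription factor of several T cell types. Genes active in stromal and other mesenchymal cells were among those with many Phase 1-specific peaks and neither an LP-specific nor a shared one, such as Thbs2 (15), Cald1 and Ltbp1 (13 each), Cxcl12 (11) and Col1a2 (10). Cald1 and Ltbp1 were chosen after their values were seen. The part of stromal cells in the Angpt1 and Maf peaks was not tested. By number of Phase 1-specific peaks, Rad51b and Rybp followed with 20 each, Gm20125 and Tns3 with 19, and Cln8, Zfp608 and Foxp1 with 18. Of the last, Foxp1, a factor of lymphocyte development, had 6 LP-specific and 22 shared peaks as well.

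Phase 1-specific peaks lay close together. With the distance commonly used to stitch enhancers into super-enhancers, between 12 and 13 kb, another peak of the class was near 43.4% of Phase 1-specific and 27.3% of LP-specific peaks, a difference of 16.1 points (14.8 to 17.3). With the Phase 1 list shortened to the length of the LP list the difference was -1.72 points, so its direction changed with the length of the list. At RUNX1-bound peaks it was 6.71 points, and with a joining distance of 5 kb 7.86 points. Joined over gaps of up to this distance, 1053 clusters of 3 or more Phase 1-specific and 156 of LP-specific peaks were formed, and the largest held 10 and 5 peaks. Most had no peak of the opposite class within their span (85.8% of Phase 1 and 64.1% of LP clusters). The Phase 1 cluster with the highest summed score among those of 10 peaks spanned 53.9 kb at Thbs2, a matrix glycoprotein gene (chr17:14608837-14662744), with 2 RUNX1-bound and 4 Med12-bound p300 peaks and no shared peak. A cluster of 8 at A730020M07Rik and Slc44a3 (chr3:121573861-121617689) had 5 with RUNX1 and 8 with Med12, and 1 of 8 at Vgll4 (chr6:114805951-114842902) had 5 and 4. In LP, 5 peaks within 26.8 kb at Cd9, a tetraspanin gene (chr6:125489126-125515877), all had RUNX1, and 5 peaks within 28.9 kb lay around Aif1, Lst1 and Tnf (chr17:35173334-35202265), 4 of them with RUNX1.

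Gene lists were read against the share of Phase 1-specific peaks among all stage-specific p300 peaks, which was 73.2%. Of the T lineage list of 40 genes, each had a p300 peak, with 42 LP-specific, 168 shared and 105 Phase 1-specific peaks, or 71.4% Phase 1-specific, close to this background. The Notch signaling list of 30 genes had 20 LP-specific and 85 Phase 1-specific peaks (81.0%). The stem and progenitor list had 48 and 83 (63.4%), the B lineage list 20 and 39 (66.1%), the myeloid list 23 and 34 (59.6%), and the AP-1 family list 10 and 23 (69.7%). The highest share of the 10 lists was that of the OP9 stroma list, 2 and 60 (96.8%). The lowest was that of the blood cell markers, 13 and 17 (56.7%). The lists were chosen with earlier results of these data known, and no test of a list was made.

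**Figure D5:**
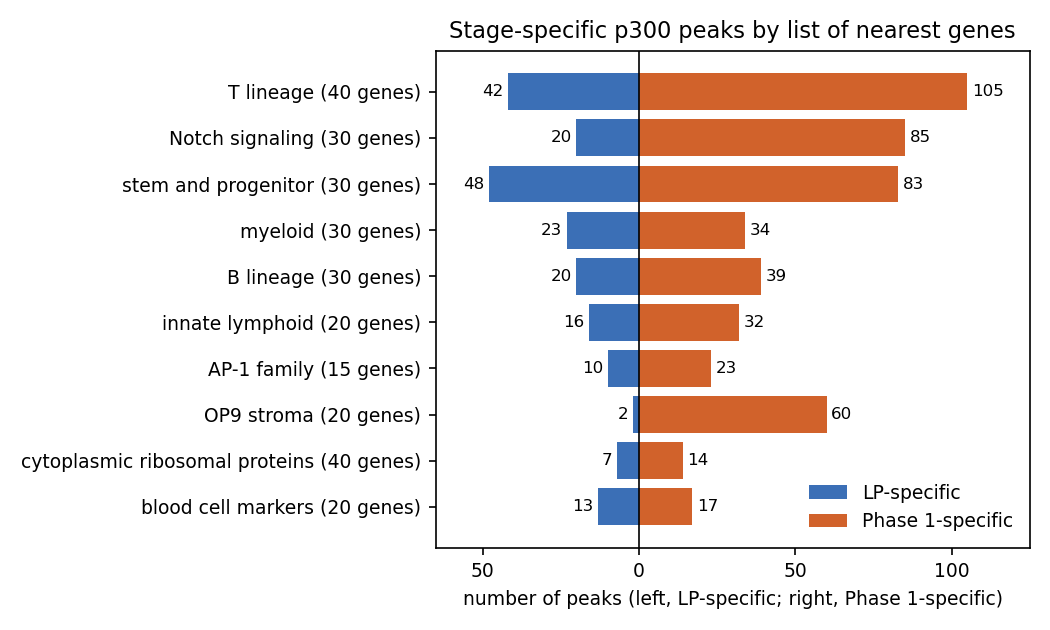
Number of LP-specific (left) and Phase 1-specific (right) p300 peaks whose nearest gene belongs to each list (y axis). The OP9 stroma list has 2 against 60 peaks and the T lineage list 42 against 105.

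Within the T lineage list, the stage-specific peaks were unevenly spread. Gata3 had 9 Phase 1-specific, 9 shared and no LP-specific peaks. The highest of the 9 Phase 1-specific peaks lay 283.1 kb downstream of the Gata3 start (chr2:9595340-9595678, percentile 89.2). It carried CTCF but neither RUNX1 nor Med12 in Phase 1, and the nearest LP p300 peak was 1.38 kb away. Tcf7 had 4 Phase 1-specific, 3 shared and 3 LP-specific peaks, with the LP-specific ones at percentile 25.7 or lower and the Phase 1-specific ones up to 99.0. Tcf12, an E protein, had 11 against 1, and Lef1, a relative of TCF1, 8 against 3. Tox, a nuclear factor of thymocyte development, had 7 against 0, the highest of them only at percentile 29.7. Il2ra had a promoter peak in the Phase 1 list alone, and 4 Phase 1-specific peaks, 5 shared ones and none LP-specific in all. Ets1 had 4 Phase 1-specific and 5 LP-specific peaks, Runx3 6 and 7, and Bcl11b, the factor of T lineage commitment, 2 and 0 beside 6 shared ones. Of genes of the T cell receptor complex and its signaling, Cd3e had 2 Phase 1-specific peaks, Cd3d and Cd3g no stage-specific one, Lck 1 LP-specific and Zap70 1 Phase 1-specific. Cd247, the CD3 zeta chain, had 2 of each class, and the kinase Prkcq 4 Phase 1-specific and 2 LP-specific peaks. The highest LP-specific peaks of the list were near Ccr7 (chr11:99133629-99133957, percentile 94.1) and Ccr9 (chr9:123749681-123750009, percentile 87), chemokine receptors that guide progenitors to the thymus. Both had LP RUNX1 and Med12.

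In the Notch pathway, several targets and nuclear partners held Phase 1-specific peaks. Dtx1, a Notch target, had 4 Phase 1-specific peaks and no other p300 peak. The highest lay in intron 3 (chr5:120685688-120686026, percentile 93.6) with RUNX1 and Med12. Nrarp, a target that feeds back on the pathway, had 4 Phase 1-specific and 3 shared peaks, the highest 7.92 kb upstream (chr2:25172670-25173008, percentile 96.3). It is the site printed above with an RBPJ string. Hes1, a target encoding a repressor, had a promoter peak in the Phase 1 list alone (chr16:30065084-30065422, percentile 90.1). The nearest LP p300 peak was 0.973 kb away, and Hes1 had 6 shared p300 peaks. Rbpj had 13 Phase 1-specific and no LP-specific peaks, and the coactivators Maml2 and Maml3 had 6 against 0 and 9 against 4. At Notch1 itself, which had 2 peaks of each stage-specific class, the higher LP-specific peak was on the promoter (chr2:26503681-26504009, percentile 71.2) and the higher Phase 1-specific peak 1.46 kb away in intron 1 (chr2:26502213-26502551, percentile 81.6). Ligand genes were uneven, with Jag1 at 10 against 0, Dll4 at 1 against 2 and Dll1 at 1 against 0. Ncstn, a subunit of the enzyme that releases Notch1-IC, had 1 shared peak and no stage-specific one.

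Notch1-IC peaks were mostly at sites with p300. Of the 1585 peaks of the LP Notch1-IC list, 90.03% overlapped LP p300 and 89.0% Phase 1 p300. This was the longest of the Notch1-IC lists, although LP cells were kept without a Notch ligand. LP Notch1-IC was at 4.84% of shared, 0.494% of LP-specific and 0.113% of Phase 1-specific p300 peaks. Whether the LP peaks reflect binding of Notch1-IC was not tested, and no overlap of another peak list with p300 is given for comparison. Of the 152 peaks of the Phase 1 Notch1-IC list, 86.8% (80.6 to 91.3%) overlapped Phase 1 p300 and 73.7% (66.2 to 80.04%) LP p300. Of the 352 Notch1-IC peaks of Phase 2, a later stage of the culture, 80.1% overlapped Phase 1 p300 and 57.7% LP p300. The Phase 1 and Phase 2 Notch1-IC lists used here hold fewer peaks than the study describes, and the shares refer to these lists. In total, 87 of 20425 Phase 1-specific, 252 of 28691 shared and 4 of 7491 LP-specific p300 peaks carried a Notch1-IC peak of Phase 1 or Phase 2. Shared p300 peaks had the highest share. Phase 1 Notch1-IC was at 0.387% of shared, 0.103% of Phase 1-specific and 0.027% of LP-specific p300 peaks. For Phase 2 Notch1-IC these shares were 0.701%, 0.397% and 0.053%. The highest-ranked of the 87 were the peaks near Armc12 and Il2ra, both with Notch1-IC in Phase 1 and in Phase 2 and without an LP Notch1-IC peak. Peaks in an intron of Stat5a (chr11:100891608-100891946, percentile 98.2), which encodes a transcription factor of cytokine signaling, and at the promoter of Pik3ip1 (chr11:3329924-3330262, percentile 97.5) were also among the 10 highest. These 2 were chosen after their values were seen.

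Among stem and progenitor genes, Runx1 had a Phase 1-specific peak in intron 2, 3.89 kb from a start (chr16:92822014-92822352, percentile 96.4), with RUNX1 at both stages, and its highest LP-specific peak lay 128.5 kb upstream (chr16:92954439-92954767, percentile 83.1) with LP RUNX1, Med12 and CTCF. Bcl11a, a factor of early lymphoid progenitors, had 4 LP-specific and 1 Phase 1-specific peaks. Meis1, a stem cell homeobox gene, had 7 Phase 1-specific and none LP-specific, Etv6 12 and 4, and Erg 7 and 5. Flt3 and Kit, receptors of the growth factors in the medium, had 1 and 4 Phase 1-specific peaks and none LP-specific. Spi1, which encodes PU.1, and Lmo2 had shared peaks only (1 and 5).

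Of the myeloid list, Irf8 had the most LP-specific peaks, the highest at percentile 52.0. Ncf1 and Tyrobp, genes of phagocyte oxidase and of receptor signaling, held the highest-ranked ones (chr5:134232597-134232925, percentile 86.6, and chr7:30411034-30411362, percentile 80.6), both with LP RUNX1 and Med12. Klf4 supplied 14 of the 34 Phase 1-specific peaks, and Cebpe the highest of them (chr14:54705832-54706170, percentile 90.1). Of the B lineage list, Ebf1 had 6 Phase 1-specific and 2 LP-specific peaks in these cells that lack Ebf1, and Foxo1 1 and 3. The highest Phase 1-specific peak of the list, near Tcf3, which encodes E2A (chr10:80435776-80436114, percentile 90.0), had neither RUNX1 nor Med12. In the AP-1 family, Jun had 8 Phase 1-specific and 3 LP-specific peaks, Batf 3 and 0 and Fos 2 and 1. Fosl1 had a promoter peak in Phase 1 alone (chr19:5447578-5447916, percentile 62.0), 1.07 kb from an LP p300 peak.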

How the data were processed

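ChIP-seq with an anti-p300 antibody was done by the authors on LP and Phase 1 Cas9-LP cells after crosslinking with DSG and formaldehyde. Per the labels and methods, reads were aligned to mm10 with Bowtie 1.1.1, peaks were called with HOMER in factor style against a control, and those reproducible between 2 replicates by the irreproducible discovery rate were kept and annotated. The labels and the methods differ on the read type and on the bcl2fastq version (1.8.4 in the processing notes), and read depth was not used here. The deposited lists give position, annotation, distance to a start and the authors' normalized peak score, which was at least 15 and for which what it was normalized to was not stated. The 4 inputs had no list here. Of 17 lists, 11 were used.

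Overlaps and shares were computed in Python 3.11.15 (pandas 2.3.3, numpy 2.4.6, scipy 1.17.1), genome windows were read with pysam 0.24.0, and plots drawn with matplotlib 3.10.9. Shares carry 95% Wilson and differences 95% Newcombe intervals. A difference counted as past the threshold when its interval left out 0. Scripts were tested on simulated data. The deposited nearest promoter identifiers were matched to RefSeq symbols (GRCm38.p6) for 85134 of 85298 peaks (99.8%). Named were the 10 highest stage-specific and 5 highest shared peaks, the 15 genes with most stage-specific peaks, the 8 largest clusters per class and members of 10 gene lists. Some items that this rule names are not reported here. The classes, lists and rules were chosen with earlier results of these data known. Coordinates are mm10, 1-based. Alternatives were a minimum score, a larger overlap, a centre distance, equal list lengths and promoter removal.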

Additional observations from a re-analysis of the deposited data

How the results depend on the processing

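No paired analysis was possible because each list combines both replicates, and for the same reason no replicate could be left out. Of the comparisons of shares under the alternative settings, 126 of 133 kept their direction and their side of the threshold. The number of LP-specific peaks was 4900 when both lists were restricted to scores of 30 or more and 2818 when only the stage-specific class was, and that of Phase 1-specific peaks was 11786 and 9257, because fewer peaks enter. With the Phase 1 list shortened to the length of the LP list, Phase 1-specific peaks numbered 11195. LP-specific peaks also numbered 11195, against 7491 before, because LP peaks whose Phase 1 partner was left out then counted as LP-specific. The difference in the stage-specific share was 0, and the IRF difference was 0.375 points with an interval that included 0. The difference in close neighbours of the same class was -1.72 points. Restricted to RUNX1-bound p300 peaks, an alternative chosen after seeing the data, there were 4252 LP-specific and 8174 Phase 1-specific peaks, and the MYB difference became 2.61 points. The Med12 difference was 1.77 points with both lists at a score of 30 or more, 5.18 with the class alone, 15.5 at equal length, 10.4 at RUNX1-bound peaks and -1.12 outside promoters, where its interval included 0. The cause was not tested.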

Other observations

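Shared p300 sites also moved in rank. Across the 28691 shared pairs the rank in LP and in Phase 1 were correlated (Spearman's rho 0.798 across peaks, which are not independent replicates), and the median site stood 3.08 percentile points higher in Phase 1, whose list also ranks the Phase 1-specific peaks. Of the pairs, 3526 rose and 1101 dropped by over 25 points. Sites with a GATA string had a median shift of 11.8 points and those with an AP-1 string 10.3, against 5.35 for RUNX, 2.37 for PU.1 and 1.52 for E-box strings. Sites of the T lineage list had a median shift of 6.64 (168 sites), of the innate lymphoid list 6.87 (33 sites), of the stem and progenitor list 0.329 and of the B lineage list -1.06. The highest gains of listed genes were at Tox (percentile 3.86 to 84.1) and Satb1, a chromatin organizer of thymocytes (8.79 to 86.6). Batf3 (16.1 to 90.9) and Runx1 (14.5 to 86.0) followed. Next came another Tox site and sites of Irf4, Jun, Bcl11a (3.55 to 63.8) and Ptprc, and then 1 of Notch3 (32.02 to 91.0). A Gata3 site went from 42.4 to 96.9 and the Lef1 promoter from 22.3 to 76.2. The largest drops of listed genes were at another Bcl11a site (78.2 to 5.09) and at Irf8 (69.7 to 14.6). Those over all genes were at Chkb (93.5 to 2.01) and Ajap1 (98.96 to 8.76). These sites were chosen after their values were seen, and shifts depend on the length of both lists.

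The innate lymphoid list had 16 LP-specific and 32 Phase 1-specific p300 peaks (66.7% Phase 1-specific). Its highest LP-specific peak was near Il2rb, a chain of the IL-2 and IL-15 receptors (chr15:78511987-78512315, percentile 94.1), and its highest Phase 1-specific peak near Prf1, which encodes perforin (chr10:61286304-61286642, percentile 81.6). Of 40 cytoplasmic ribosomal protein genes, 33 had a promoter p300 peak at each stage, and the list had 7 LP-specific and 14 Phase 1-specific peaks. By chromosome, the Phase 1-specific share of Phase 1 p300 peaks was highest on chromosome 6 (52.3%) and chromosome 1 (47.6%) and lowest on X (34.8%) among the chromosomes with over 2 peaks. On chromosome 6 it was 46.8% for Med12, 37.6% for RUNX1 and 9.39% for CTCF. LTR elements were under 7.72% of LP-specific and 8.01% of Phase 1-specific p300 peaks, a difference of 0.294 points (-0.431 to 0.990).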
